A study of Homo sapiens with 4 samples.

Results

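The genes described here encode cleavage factor I (NUDT21, CPSF6 and CPSF7), cleavage factor II (PCF11 and CLP1), the nuclear poly(A) polymerases PAPOLA and PAPOLG, and the scaffold proteins SYMPK and RBBP6 of the machinery that makes mRNA 3′ ends. Their peaks were every position listed under the NCBI Gene ID of 1 of the 9 genes in either deposited list, with each position counted once. This gave 81 peaks of 72614, of which 70 came from the 63507 PABPC4 peaks and 11 from the 9107 HNRNPC peaks, and no peak of these genes was listed under a further gene ID. The genes were chosen by name and not by any measured value, though with earlier results of these data known.

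The 4 samples were cultures of MDA-MB-231, an established human breast cancer line, irradiated with 400 mJ cm-2 of ultraviolet light at 254 nm. In 2 samples the endogenous poly(A)-binding protein PABPC4 was immunoprecipitated for PAPERCLIP, in which reverse transcription is primed from poly(A) tails, so that the 3′ edge of a peak lies near the end of a polyadenylated RNA. In the other 2 samples the endogenous nuclear RNA-binding protein HNRNPC was immunoprecipitated by irCLIP according to the labels and methods, while the name of its list gives HITS-CLIP, and which of these applied was not settled. All cells shared line, dose and wavelength, no knockdown or treatment separated the groups, and the subclone was not given in the sources used here.

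The tags of both samples were pooled before peaks were called, so that each peak has 1 height, the number of unique tags at its summit, and no spread between replicates. Heights summed to 4019739 tags in the PABPC4 list and 147196 in the HNRNPC list, which are not library depths, and the heights of 1 list are not comparable with those of the other. Intervals are 95% Wilson intervals for shares and 95% exact Poisson intervals for heights, and both cover counting error only. All 5 mesenchymal markers (VIM, CD44, SPARC, AXL and MSN) carried a PABPC4 3′ UTR peak, with tallest heights from 264 to 10197 tags. Of 6 luminal or epithelial markers 4 also did, GATA3 with 108 tags, ERBB3 with 57, CDH1 with 56 and ESRP1 with 21. None of 3 markers of other tissues did. The markers thus fitted the line's label by height, but not by the presence of a peak alone. ESR1, which encodes the oestrogen receptor, had no 3′ UTR peak and a tallest peak of 7 tags, and PGR had no peak.

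Most human pre-mRNAs are cut downstream of a poly(A) signal, usually AAUAAA or AUUAAA, and the new end receives a poly(A) tail. Cleavage factor I binds UGUA upstream of the cut, cleavage factor II is needed for the cut itself and for the release of RNA polymerase, and the poly(A) polymerases add the tail. Many genes have several such sites, in the 3′ UTR or inside introns, and an end in an intron gives a shortened transcript that lacks the later exons. PAPERCLIP can also be primed from A-rich stretches inside a transcript, so each peak is given with the presence of an A-rich stretch, meaning a run of at least 6 A, or 10 nt with at least 7 A, in the 50 nt that follow.

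The sequences below are the last 30 nt of 11 PABPC4 peaks whose 3′ edge lay within 24 nt of an annotated transcript end (GENCODE 44). These sequences are shown because they carry the signals on which the account of each gene rests. All are read from hg38 in the sense of the transcript, 5′ to 3′, and the capitals mark AAUAAA or AUUAAA.
NUDT21 distal end, chr16:56429136-56429165, minus strand: uugucauuucAAUAAAaaauauuugaaaga
CPSF6 proximal end, chr12:69269909-69269938, plus strand: auguaguguuguAAUAAAcuguuuaauggg
CPSF6 distal end, chr12:69274325-69274354, plus strand: cuuguauugaaAAUAAAacaaacuuuugau
PCF11 end in intron 1, chr11:83158840-83158869, plus strand: cugguauuauaaaauuugugAAUAAAacau
PCF11 full-length end, chr11:83185759-83185788, plus strand: auauucauacauguAAUAAAuagaaugaug
CLP1 end, chr11:57661833-57661862, plus strand: aaucauuuuAAUAAAuauuuuugccauauc
PAPOLA end in intron 12, chr14:96537862-96537891, plus strand: cuuuaugcucuuccccaAUUAAAaacaaga
PAPOLA distal end, chr14:96567085-96567114, plus strand: aaacacAAUAAAaaaaaaacagcacaaucu
PAPOLG end, chr2:60798439-60798468, plus strand: aucuuuucaaagagaaacguuuaaaaccuu
SYMPK end, chr19:45815450-45815479, minus strand: cuuaaaaagaAAUAAAagaugugaacuugg
RBBP6 end in intron 4, chr16:24554909-24554938, plus strand: auauaaaauuacAAUAAAauguuaaaacug

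All 9 genes had a PABPC4 peak, where 59.2% of 20056 protein-coding genes had one, and 8 of 9 had a peak at an annotated end, against 67.2% of the genes with a peak. The exception was CPSF7. There were 2 or more peaks at annotated ends in 4 of 9 genes (CPSF6, PCF11, PAPOLA and RBBP6), where 16.1% of genes with a peak had as many. The other 5 had 1 or, in CPSF7, none. An intronic end was found in 4 of 9 genes (CPSF6, PCF11, PAPOLA and RBBP6), where 12.2% of genes with a peak had one. That of CPSF6 lay in an intron after the stop codon. With annotated transcript ends alone the intronic count was 3 of 9, against 7.19%. Counted as peaks, intronic ends were 5 of 70 (7.14%, 95% interval 3.09 to 15.7), against 2.52% of the list. The 9 genes also had more peaks each, with a median of 8 against 3 over all genes with a peak, and the part of peak number in these counts was not tested.

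The tallest PABPC4 peak lay at an annotated end in 4 of 9 genes (NUDT21, CLP1, PAPOLA and SYMPK), against 40.4% of genes with a peak. In PCF11 and RBBP6 it lay in coding sequence, which was so for 3.66% of genes with a peak. In CPSF6 and CPSF7 it lay in an intron before an A-rich stretch, and in PAPOLG an intron peak and the end peak tied. The 9 genes thus ranged from CLP1, whose 1 called peak lay at an annotated end, to PCF11, in which end peaks were a small part of the signal.

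**Figure D1:**
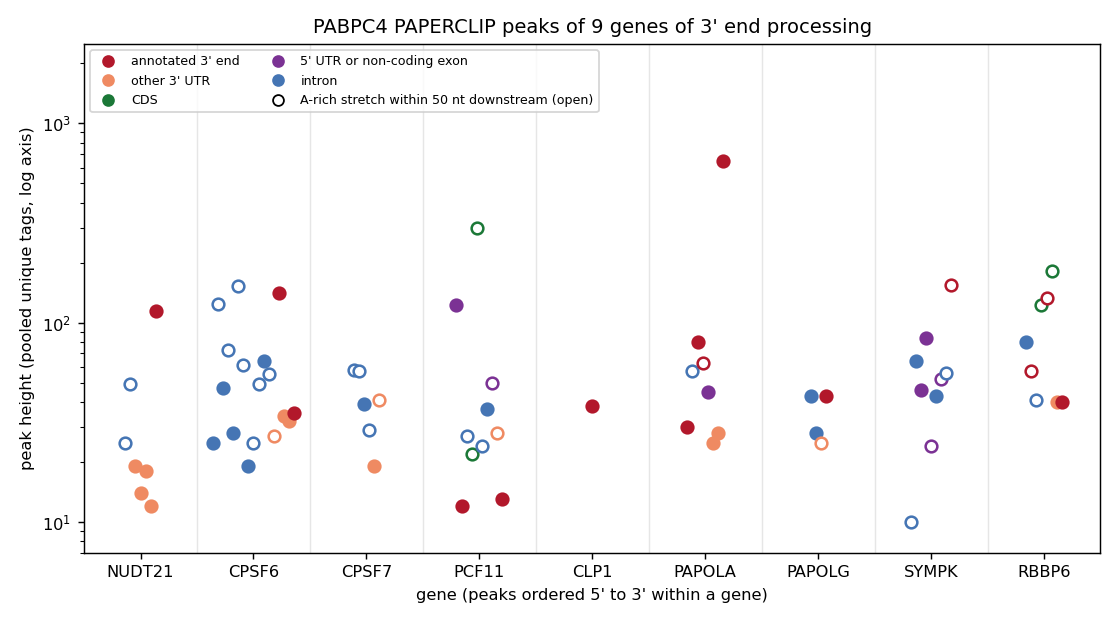
Height of each of the 70 PABPC4 peaks (pooled unique tags, log axis) by gene, ordered 5′ to 3′ within a gene. Colour gives the place of the peak, and open circles have an A-rich stretch within 50 nt downstream. PAPOLA's distal end at 644 tags is the highest point, while the coding sequence peaks of PCF11 (298 tags) and RBBP6 (182 tags) are open circles above their own end peaks.

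By place, 25 of 70 PABPC4 peaks lay in 3′ UTRs (35.7%, interval 25.5 to 47.4), where 31.6% of the list did. Introns held 30 of 70 (42.9%, 31.9 to 54.5), a share whose interval lay below the 60.2% of the list. Peaks in an intron that fell in an exon of another model were not counted there. With the 3′ edge in introns of the longest coding transcript instead, SYMPK had 8 peaks and not 4, and PCF11 6 and not 3. PAPOLA had 4 and not 1, and RBBP6 3 and not 2. No such count of the list is given here. Coding sequence held 5 of 70 (7.14%, 3.09 to 15.7) against 3.52%, and non-coding exons 7 of 70 (10.0%, 4.93 to 19.2) against 3.59%. The 3 peaks in 5′ UTRs (4.29% against 0.424%) all belonged to SYMPK. Peaks of 1 gene share their transcript, so these intervals, which treat peaks as independent, are too narrow.

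At annotated ends lay 15 of 70 peaks (21.4%, 13.4 to 32.4), against 16.1% of the list. This count depended on which transcript models were used, since 8 of 70 (11.4%) lay at ends of protein-coding models. A poly(A) signal in the last 40 nt was present in 16 of 70 peaks (22.9%) against 19.4% of the list, and in 26 of 70 (37.1%) when the list of signals was widened to 12 variants. Of the 15 end peaks, 12 carried AAUAAA or AUUAAA (80.0%, 54.8 to 93.0), against 69.3% of all end peaks. The signal started a median of 19.5 nt before the 3′ edge in these 12 peaks and 21.0 nt in the list. The other 4 peaks with a signal were 2 in the 3′ UTR of NUDT21, 1 in the 3′ UTR of CPSF6 and 1 in an intron of CPSF6, and none of them lay before an A-rich stretch.

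An A-rich stretch followed 33 of 70 peaks (47.1%, 35.9 to 58.7), against 58.5% of the list. It followed 18 of 30 intron peaks against 71.2% of those in the list, and 6 of 25 3′ UTR peaks against 33.6%. It followed all 5 coding sequence peaks, with an interval from 56.6 to 100%, against 62.6%. By height, 35.5% of the 4498 tags summed over the 9 genes lay at annotated ends, against 33.8% of the list. PAPOLA alone carried much of this, for the share was 22.1% without it. The other genes differed widely, from 0 in CPSF7 to all tags in CLP1.

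**Figure D2:**
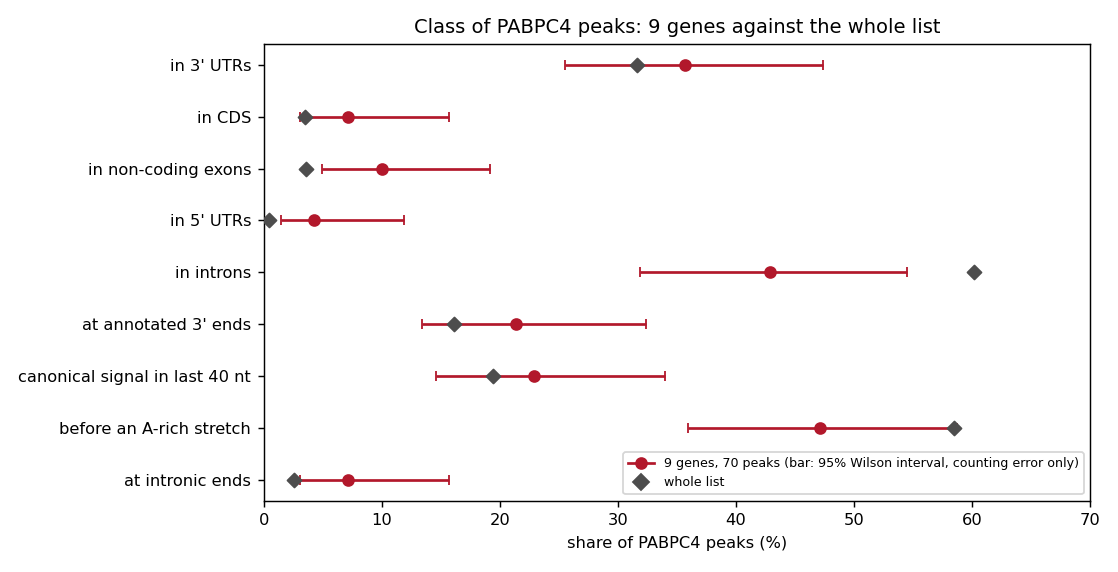
Share of PABPC4 peaks (%) in each class for the 9 genes (red, 70 peaks, bars are 95% Wilson intervals for counting error) and for the whole list (grey diamonds). The list's value lies inside the interval for 3′ UTRs (31.6%), annotated ends (16.1%) and poly(A) signals (19.4%), and above it for introns (60.2%). Introns here leave out peaks in an exon of any transcript model.

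NUDT21 is the subunit of cleavage factor I that binds UGUA, and its loss is known to shift many genes to proximal ends. The gene lies at chr16:56429133-56452199 on the minus strand of hg38. It had 7 PABPC4 peaks, of which 5 lay in the 3′ UTR. The tallest had 114 tags (interval 94.0 to 137) and ended 3 nt before the annotated end, 3576 nt from the stop codon, with AAUAAA 20 nt before its edge. NUDT21 therefore had its highest peak at the most distal place in its 3′ UTR.

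Closer to the stop codon, 2 low peaks of NUDT21 each carried AAUAAA without an annotated end. The peak of 14 tags ended 87 nt from the stop codon with its signal 21 nt before the edge, and the peak of 12 tags ended 1033 nt from it with its signal 18 nt before the edge. A further 2 peaks, of 19 and 18 tags, ended 23 and 909 nt from the stop codon and had no signal in the last 40 nt. The intervals of these 4 heights overlapped each other and none reached the distal peak. In introns 6 and 3, peaks of 49 and 25 tags lay before A-rich stretches. No HNRNPC peak was called in NUDT21.

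CPSF6 encodes the larger partner of NUDT21 with an arginine- and serine-rich tail, and lies at chr12:69239569-69274358 on the plus strand. It had 17 PABPC4 peaks, the most of the 9 genes. There were 2 annotated ends with peaks in its 3′ UTR. The proximal one had 141 tags (119 to 166), 430 nt from the stop codon, and the distal one 35 tags (24.4 to 48.7), 4846 nt from it. Of the tags at these ends, 80.1% (73.6 to 85.3) were thus at the proximal end, whereas the tallest peak of NUDT21 was the distal one. AAUAAA started 18 and 19 nt before their edges.

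Another CPSF6 peak, of 32 tags, ended 616 nt from the stop codon with AUUAAA 21 nt before its edge and no annotated end within 24 nt. Its neighbour of 34 tags, 539 nt from the stop codon, had no signal in its last 40 nt. The interval of each overlapped that of the distal end, so these 3 heights did not separate.

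Introns held 12 of the 17 CPSF6 peaks, 7 in intron 1 and 5 in intron 10, the last intron. The tallest of the whole gene was in intron 1, with 152 tags (129 to 178), followed there by 1 with 124 tags, and both lay before A-rich stretches. In intron 10 a peak of 19 tags, at chr12:69265273-69265309, had AAUAAA 22 nt before its edge and no A-rich stretch. It met the rule for a candidate intronic end, although no annotated transcript ended near it. Intron 10 lies after the stop codon of the longest coding transcript, so an end there would leave the coding sequence whole. In all, 57.1% of the 991 tags of CPSF6 lay before A-rich stretches and 17.8% at annotated ends.

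CPSF7 encodes the alternative partner of NUDT21 in cleavage factor I and lies at chr11:61402641-61430031 on the minus strand. None of its 6 PABPC4 peaks lay at an annotated end, which allows a share of up to 50% if a count of 0 is taken to allow 3 counts. Its tallest 3′ UTR peak had 41 tags and was wide, 107 nt, where the median PABPC4 peak was 47.0 nt. This peak ended 37 nt past the nearest annotated end and lay before an A-rich stretch. AAUAAA stood 60 nt before its edge and again 16 nt after it, so the signals flanked the edge. The bases that met the A-rich rule included this downstream AAUAAA, so the stretch and the signal were not separate features. The neighbouring peak of 19 tags had no signal in its last 40 nt.

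In intron 2 of CPSF7, peaks of 58 and 57 tags also lay before A-rich stretches. These were the tallest of the gene, and 76.1% of its 243 tags, the 3′ UTR peak of 41 included, lay before such stretches. The counting intervals of 58 tags (44 to 75) and of the 3′ UTR peak (29.4 to 55.6) overlapped. Heights in CPSF7 therefore gave no order between intron and 3′ UTR.

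**Figure D3:**
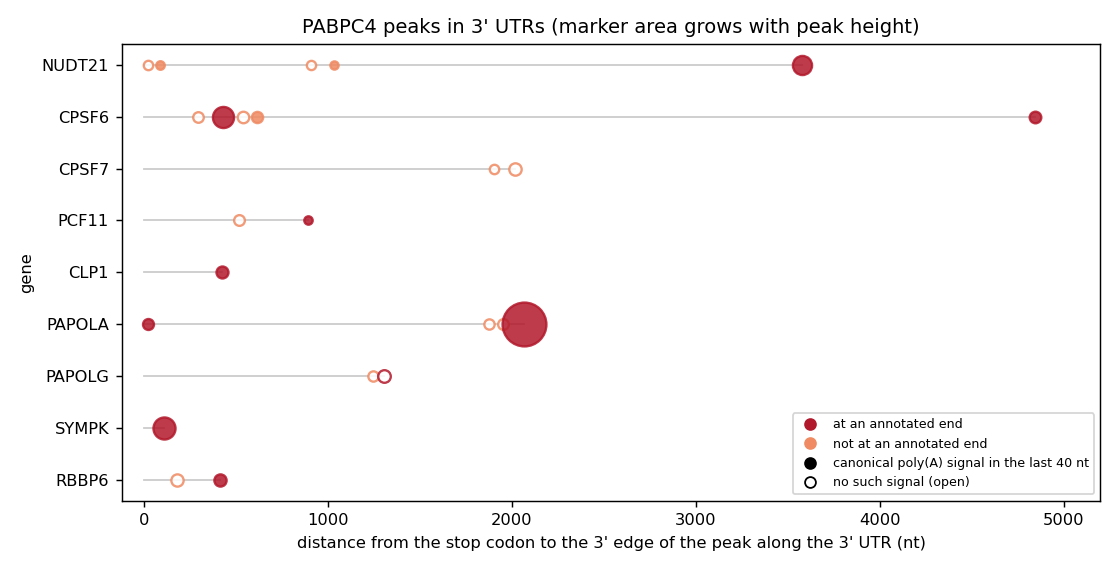
PABPC4 peaks in 3′ UTRs by distance from the stop codon (nt along the spliced 3′ UTR) for each gene. Marker area grows with height, dark red marks annotated ends, and filled markers have a canonical poly(A) signal in the last 40 nt. The dark red peaks of CPSF6 lie at 430 and 4846 nt and that of NUDT21 at 3576 nt, and the PAPOLA peak at 22 nt belongs to a short coding transcript that stops in intron 9.

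PCF11, the cleavage factor II subunit that binds the tail of RNA polymerase II, is known for a poly(A) site in its first intron through which it limits its own level. The gene lies at chr11:83156988-83187451 on the plus strand and had 10 PABPC4 peaks. In intron 1 there were 2 peaks on a transcript model that ends in this intron and is annotated as still to be experimentally verified. The upstream one, chr11:83158752-83158795, had 123 tags (102 to 147). It ended 84 nt before that model's end and 21 nt before an AAUAAA, with no A-rich stretch and no signal in its last 40 nt.

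The downstream one, chr11:83158822-83158869, had 12 tags (6.20 to 21.0). It ended 10 nt before the model's end, with AAUAAA 10 nt before its edge. Only this second peak met the rule for an intronic end, and it was weakly called, with an authors' p-value of 0.0323. The tall and the low peak both lie upstream of the same annotated end.

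At the end of the full-length transcript, meaning the longest coding one, PCF11 had 13 tags (6.92 to 22.2), 894 nt from the stop codon. AAUAAA started 16 nt before the edge, and the authors' p-value was 0.00245. Of the 25 tags at these annotated ends, 48.0% (30.0 to 66.5) were in intron 1, so the ends could not be ordered at this depth. With the window widened to 100 nt the 123-tag peak was also counted, and the share of PCF11's 634 tags near ends went from 3.94% to 23.3%. A 3′ UTR peak of 28 tags, 515 nt from the stop codon, lay before an A-rich stretch. No PABPC4 peak was called at the most distal annotated end of PCF11, position 83187451.

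The tallest PCF11 peak was in coding sequence, at chr11:83166099-83166174, with 298 tags (265 to 334), a height at or above that of 98.1% of the PABPC4 list. A second coding sequence peak had 22 tags. Both lay before A-rich stretches, as did 70.8% of the gene's tags, and the part of these stretches in the heights was not tested. The 30 nt downstream of this peak and of a coding sequence peak of RBBP6 are shown because they hold the A-rich stretch, with runs of 4 or more A in capitals.
PCF11 after the 298-tag peak, chr11:83166175-83166204, plus strand: agAAAAAAAggauaaagaugagcacaugaa
RBBP6 after the 133-tag peak, chr16:24570122-24570151, plus strand: agAAAAAAgAAAAAgAAAAAcugaagAAAA

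Across 13293 genes with a peak of either protein, the genes whose pattern was most like PCF11's were CPSF7 (distance 0.47), ZNRF3 (0.48) and ATG13 (0.50). The measure was the Euclidean distance over 6 scaled log2 values, the number and tallest height of PABPC4 3′ UTR peaks, of PABPC4 intron peaks and of HNRNPC peaks. Without scaling the nearest were ADAM19, ATG13 and URB1, so that 1 of 3 was shared. The likeness used neither coding sequence peaks nor PABPC4 peaks in non-coding exons. PCF11's 123-tag peak in intron 1 was therefore left out, and its tallest intron peak in the measure had 37 tags.

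CLP1, an RNA kinase and the partner of PCF11 in cleavage factor II, lies at chr11:57648188-57661865 on the plus strand. It had a single PABPC4 peak, of 38 tags (26.9 to 52.2). The peak ended 2 nt before the annotated end, 426 nt from the stop codon, with AAUAAA 21 nt before its edge. CLP1 was thus the 1 gene of the 9 whose whole signal lay at an annotated end.

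PAPOLA encodes the main nuclear poly(A) polymerase and lies at chr14:96501433-96567116 on the plus strand. Its distal end had 644 tags (595 to 696), the tallest peak of all 9 genes and at or above 99.4% of the list. It ended 2 nt before the annotated end and 2064 nt from the stop codon, with AAUAAA 24 nt before its edge and 4 UGUA in its last 100 nt, where end peaks had a median of 1.00. Annotated ends held 84.1% (81.6 to 86.2) of PAPOLA's 972 tags.

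Besides the distal end, PAPOLA had peaks at 3 internal annotated ends. In intron 12 a peak of 80 tags, 9.79% (7.94 to 12) of the 817 tags at ends, had AUUAAA 13 nt before its edge. This was the second tallest peak at any end of the gene. In intron 9 a peak of 30 tags, 3.67% (2.58 to 5.19), had AAUAAA 22 nt before its edge. Neither intronic end lay before an A-rich stretch, and the intervals of their shares did not overlap. A peak of 63 tags ended 1 nt before the end of a retained-intron model, but it lay before an A-rich stretch and carried neither AAUAAA nor AUUAAA in its last 40 nt. The distal end kept 78.8% (75.9 to 81.5) of the tags at ends.

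PAPOLG encodes a nuclear poly(A) polymerase related to PAPOLA, and its mRNA has served as a model of a poly(A) site without AAUAAA. It lies at chr2:60756253-60802086 on the plus strand. Its end peak had 43 tags (31.1 to 57.9), stopped exactly at an annotated end 1308 nt from the stop codon, and had none of the 12 signals in its last 40 nt, as was so for 18.9% of end peaks in the list. Its last 100 nt held 5 UGUA, and 0.304% of end peaks in the list held 5 or more. The 30 nt with the most UGUA are shown because UGUA is the element bound by NUDT21, with UGUA in capitals.
PAPOLG upstream of its end, chr2:60798397-60798426, plus strand: guaUGUAuuuucagaguauuuuUGUAUGUA

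PAPOLG's 25-tag peak, 1246 nt from the stop codon, lay before an A-rich stretch, and peaks of 43 and 28 tags lay in introns 3 and 7 with no such stretch. No PABPC4 peak was called at the most distal annotated end of PAPOLG, position 60802086. UGUA was present in the last 100 nt of 11 of the 15 end peaks of the 9 genes (73.3%, 48.0 to 89.1), against 52.8% of end peaks in the list. It was also present in 52.7% (39.8 to 65.3) of their other peaks against 41.8%. Both intervals held the list's value.

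**Figure D4:**
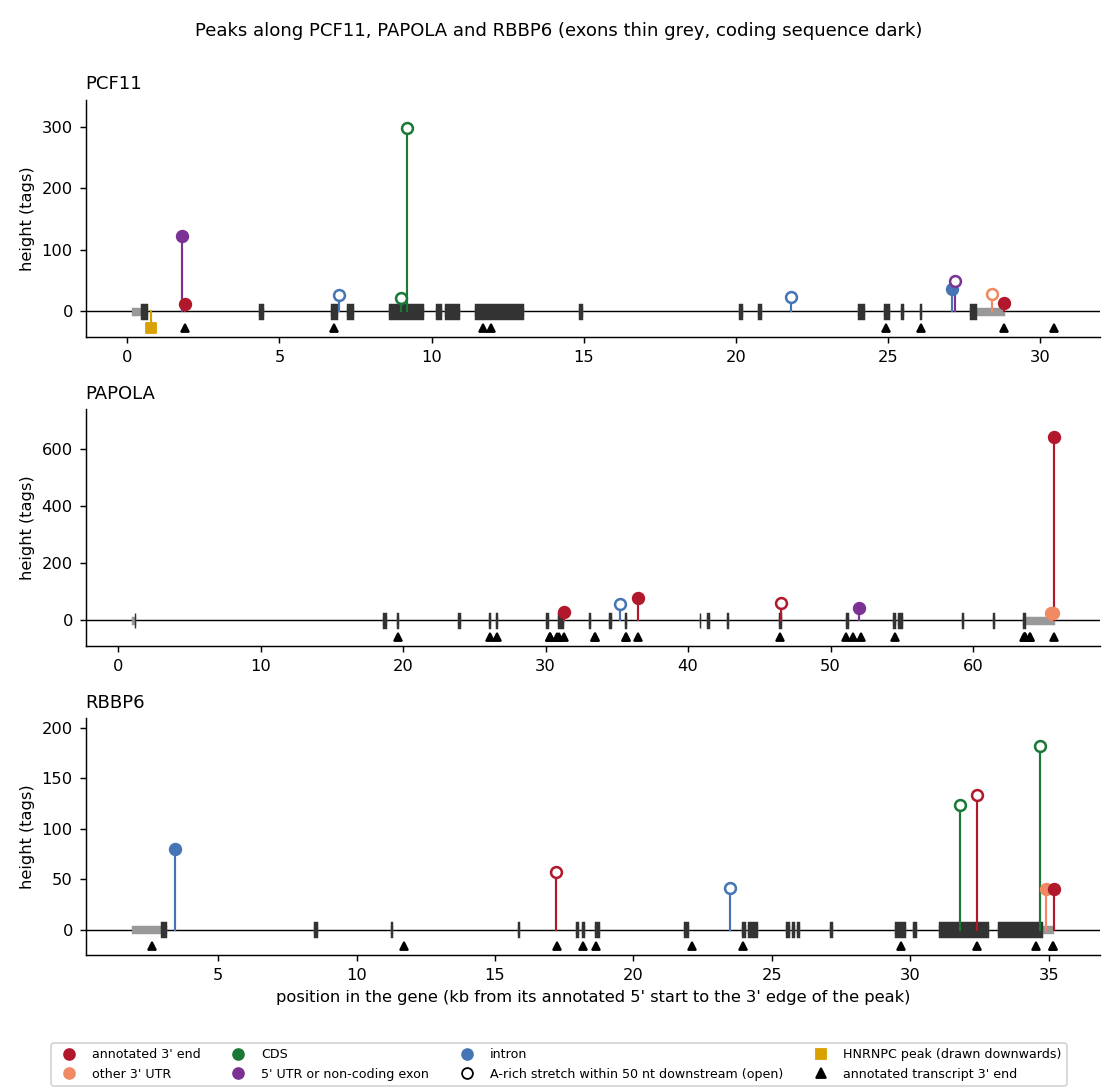
Peaks along PCF11, PAPOLA and RBBP6, with position in kb from the annotated 5′ start on the horizontal axis and height in pooled unique tags on the vertical axis. PABPC4 peaks point up and are coloured by place, with open circles before A-rich stretches, HNRNPC peaks point down as squares, and triangles mark annotated transcript ends. PCF11 shows a 123-tag peak in intron 1 and a 298-tag coding peak, both above its 13-tag end in the 3′ UTR. A further annotated end of PCF11 downstream has no peak. PAPOLA's tags gather at its last end.

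RBBP6, a ubiquitin ligase that the cleavage machinery needs, lies at chr16:24537693-24572863 on the plus strand and had 8 PABPC4 peaks. In coding sequence it had 3, of 123, 133 and 182 tags, and all lay before A-rich stretches. The 133-tag peak also ended 8 nt past the end of a transcript model whose 3′ end is annotated as incomplete. It was therefore counted among the 15 end peaks, which were 14 without incomplete ends. These were the tallest peaks of RBBP6, and 77.0% of its 696 tags lay before A-rich stretches.

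In intron 4 a peak of 57 tags (43.2 to 73.9) ended exactly at an annotated end, with AAUAAA 18 nt before its edge, though an A-rich stretch also lay downstream. The final end had 40 tags (28.6 to 54.5) and no A-rich stretch downstream. The heights of the intronic and the final end overlapped in their intervals. RBBP6 had no HNRNPC peak.

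SYMPK, the scaffold symplekin, lies at chr19:45815410-45863194 on the minus strand. Its end peak had 155 tags (132 to 181), 110 nt from the stop codon, with AAUAAA 20 nt before its edge and an A-rich stretch downstream. It held 29% of the 534 tags in 9 PABPC4 peaks. In intron 1 of the longest coding transcript lay 5 of the 9, of which 3, of 84, 46 and 24 tags, fell in a 5′ UTR of other SYMPK models. None of these 5 carried AAUAAA or AUUAAA in the last 40 nt.

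Compared at their tallest complete annotated end, the heights ran from PAPOLA at 644 tags over SYMPK at 155, CPSF6 at 141, NUDT21 at 114, RBBP6 at 57, PAPOLG at 43 and CLP1 at 38 to PCF11 at 13. CPSF7 had no such peak. These are tags at single sites in 1 pooled list, not levels per transcript length. The intervals of neighbours in this order did not overlap between PAPOLA and SYMPK, between NUDT21 and RBBP6, and between CLP1 and PCF11. All other neighbours overlapped and had no order at this depth.

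HNRNPC is known to bind runs of U, mostly in introns. Peaks were called in 4 of the 9 genes, where 19.0% of protein-coding genes had one. SYMPK had 7 HNRNPC peaks, CPSF6 had 2, and CPSF7 and PCF11 had 1 each. At least 7 were found in 0.957% of protein-coding genes. Introns held 9 of the 11 peaks (81.8%, 52.3 to 94.9), against 85.5% of the list.

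In SYMPK the HNRNPC heights were 28, 18, 16, 14 and 14 tags in intron 1, 17 tags in intron 5 and 11 tags in intron 21. The first fell in the 5′ UTR of another model, and the last was weakly called, with an authors' p-value of 0.0433. The intervals of the 5 peaks in intron 1 overlapped. Both proteins thus had 5 peaks in intron 1 of SYMPK, but the closest pair there stood 720 nt apart.

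The tallest HNRNPC peak of the group was in CPSF7, with 39 tags in intron 9, 356 nt from the nearest PABPC4 peak, and it was 1 of 11 with GUGUCA near its 3′ end, against 23.3% of the list. PCF11's peak of 27 tags crossed from exon 1 into intron 1. Its 5′ edge lay in the coding part of exon 1, and its centre and 3′ edge lay in intron 1. It was on the same model as the intronic end of PCF11 and 997 nt upstream of the 123-tag PABPC4 peak. CPSF6 had peaks of 9 tags in intron 1 and 14 tags in intron 10. The latter stood 131 nt from a PABPC4 peak of 25 tags before an A-rich stretch, the shortest distance of the 11.

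UUUUU was found inside 6 of the 11 HNRNPC peaks (54.5%, 28.0 to 78.7), against 13.3% of the list. In the 50 nt upstream it was found for 7 of 11 (63.6%, 35.4 to 84.8), against 30.5%. Inside or upstream it was found in 10 of 11 (90.9%, 62.3 to 98.4), against 39.7%. Since 7 of the 11 came from SYMPK, these shares rest largely on 1 transcript. AUUACA, which was also counted, stood in 4 of 11 against 12.7%. The windows below show the longest U runs in or near SYMPK peaks, of 27 and 15 nt, and the end of the CPSF7 peak, with runs of 4 or more U, or GUGUCA in the last, in capitals. The run of 27 nt starts 26 nt upstream of the 5′ edge of its peak, so nearly all of it lies outside, while the run of 15 nt starts 2 nt inside.
SYMPK intron 1, at the 5′ edge of a 14-tag peak, chr19:45859952-45859981, minus strand: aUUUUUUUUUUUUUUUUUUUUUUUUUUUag
SYMPK intron 1, at the 5′ edge of the 28-tag peak, chr19:45862027-45862056, minus strand: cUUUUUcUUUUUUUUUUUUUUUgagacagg
CPSF7 intron 9, 3′ end of the 39-tag peak, chr11:61404861-61404890, minus strand: ccauuccucaccacuucuaGUGUCAgacag

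None of the 11 HNRNPC peaks overlapped a PABPC4 peak (interval 0 to 25.9%), and 0.944% of the HNRNPC list did. The distance to the nearest PABPC4 peak of the same gene ran from 131 to 4124 nt with a median of 1801 nt. No HNRNPC peak of the 9 genes lay in a 3′ UTR, so none could be set against a pair of 3′ UTR ends. At this depth an overlap as frequent as in the list would not be detectable in 11 peaks.

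**Figure D5:**
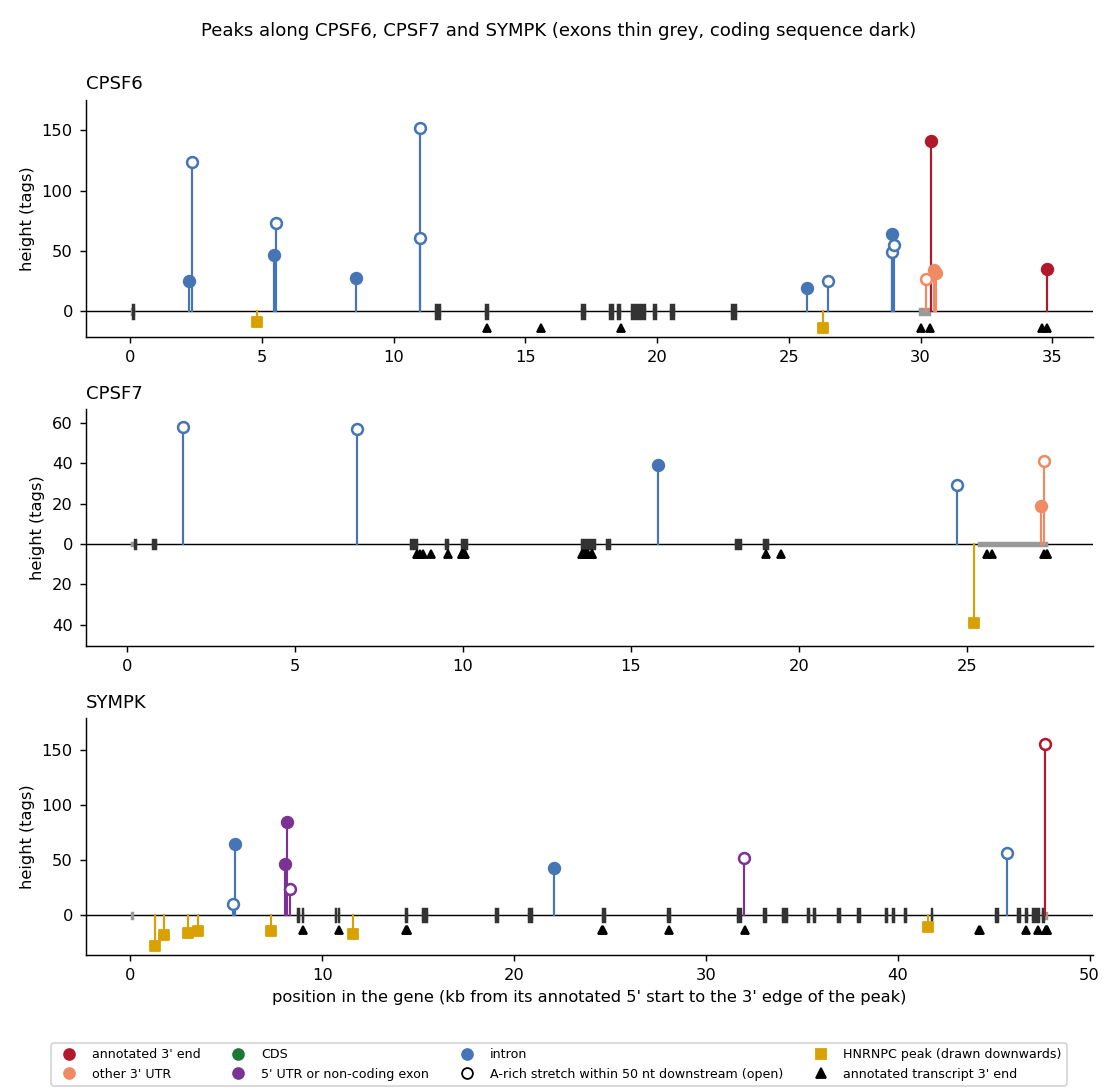
Peaks along CPSF6, CPSF7 and SYMPK, with position in kb from the annotated 5′ start and height in pooled unique tags. PABPC4 peaks point up, HNRNPC peaks point down as squares, open circles lie before A-rich stretches and triangles mark annotated transcript ends. SYMPK shows 5 HNRNPC squares near its start and a 155-tag end peak, and CPSF6 shows intron peaks as tall as its proximal end of 141 tags.

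Among 21 other genes of 3′ end processing (the CPSF and CstF complexes, PABPN1, further polymerases and termination factors), 20 had a PABPC4 peak and 10 an HNRNPC peak. Over all protein-coding genes these shares were 59.2% and 19.0%. Of those 20, 13 had a peak at an annotated end, 3 had 2 or more such peaks and 3 had an intronic end. Over all genes with a peak these shares were 67.2%, 16.1% and 12.2%. Coding sequence held a peak in 7 of the 20 and in 2 of the 9 genes, against 12.6% of genes with a peak. It held the tallest peak in none of the 20, against 3.66%. PABPN1, the nuclear poly(A)-binding protein, had the tallest 3′ UTR peak of these, 2130 tags, with 96.2% of its tags at ends, and WDR33, which recognises the poly(A) signal, had the lowest, 14 tags. The counts of the 9 genes stood at 4 of 9 for 2 or more ends and 4 of 9 for intronic ends, and no difference between the groups was tested.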

How the data were processed

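The values were peak heights, counts of unique tags at each peak's summit, as deposited by the authors in 1 list per protein and not scaled to depth. The authors pooled both samples of a protein before calling peaks with the CLIP Tool Kit. For HNRNPC they collapsed molecular identifiers, trimmed with cutadapt, aligned to hg38 with BWA 0.7.17 and removed PCR duplicates; the processing of the PABPC4 tags is not given in the sources used here. Each entry also held a gene ID and the authors' p-value, up to 0.05 for PABPC4 and 0.1 for HNRNPC.

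Positions listed again under another gene ID (6271 PABPC4 and 1281 HNRNPC entries) were counted once. Of 13189 PABPC4 gene IDs, 12934 matched GENCODE 44. A peak took the feature at its centre, in the order 3′ UTR, coding sequence, 5′ UTR, non-coding exon, intron, over all transcripts. An intronic end lay in an intron of the longest coding transcript, either within 24 nt of a transcript end, or with AAUAAA or AUUAAA in its last 40 nt and no A-rich stretch downstream. Motifs were searched on the transcript strand. With pooled lists there was no test, and values are set beside those of the whole list. Named were all 9 genes with their tallest, end, intronic end and HNRNPC peaks, 3 genes like PCF11, and the pathway list by counts. PABPN1, WDR33 and single further peaks were chosen after their values were seen. The genes and lists were chosen with earlier results of these data known. The motif and position searches were tested on simulated data (Python 3.11.15, pysam 0.24.0, scipy 1.17.1). Sequences are printed for 11 of the 15 end peaks, and those of the other 4 are not reported here.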

Additional observations from a re-analysis of the deposited data

How the results depend on the processing

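Of 96 recalculations, 82 left the value the same and 14 moved it. For shares this meant inside or outside the counting interval. The genes most like PCF11 have no interval and were compared by the number shared. With peaks at or above the list's median height the 3′ UTR share was 24.4% and the share of height at ends 39.6%. The latter was 37.6% within 50 nt of an end, 41.3% within 100 nt, 32.6% with complete ends only, 40.5% without CPSF6, 37.6% without CPSF7, 40.7% without PCF11 and 22.1% without PAPOLA. Ends of protein-coding transcripts alone gave 11.4% of peaks at ends. With 12 signals 37.1% of peaks carried one. A-rich stretches followed 34.3% of peaks within 20 nt and 35.7% when 8 A in 10 nt were asked. Unscaled values shared 1 of 3 genes like PCF11. Complete ends and the leaving out of single genes were chosen after seeing the data. No paired analysis was possible because each list already merges the tags of its samples, and for the same reason no replicate could be left out. Heights of 10 to 20 tags carry wide counting intervals.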
